A study of Arabidopsis thaliana with 4 samples.

Results

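The transcripts described here code for the enzymes that make and break down abscisic acid (ABA) in *Arabidopsis thaliana*. The 10 genes were taken by locus: *ABA1*, *NCED3*, *NCED5*, *NCED6*, *NCED9*, *ABA2*, *AAO3*, *CYP707A1*, *CYP707A2* and *CYP707A3*. All 10 were on the array, with 15 probes among 43550 probes tested, and they are 10 of 29013 loci tested. The list was not chosen by a cut on measured values, but earlier results of these data were known when it was made. *NCED3* is among the genes that the study had selected from these same arrays.

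RNA came from whole seedlings of the cultivar Col0, roots and shoots together, 7 days old by the study's methods. One group was exposed for 16 h to the microbial volatile organic compounds (mVOCs) of the plant pathogen *Erwinia amylovora*, which grew in the same dish without touching the plants, and the control group had no bacterium. There were 4 biological replicates, and each gave 1 two-colour array with mVOC-exposed RNA in Cy5 and control RNA in Cy3. The dyes were never exchanged, so a dye effect on a probe and the effect of exposure cannot be told apart.

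One free-text label of all 4 arrays names untreated embryonic stem cells, which goes against the organism, tissue, cultivar and agent in the other labels, and it was not used. The arrays carry *Arabidopsis* loci, and all 35 probes of 4 shoot genes and all 10 probes of 4 root genes were well above background in both groups on all 4 arrays. Between 74.6% and 78.8% of spots were well above background in mVOC-exposed samples and between 74.2% and 76.4% in controls, and 0 spots were saturated. Replicates 1 and 2 shared 1 slide, and replicates 3 and 4 shared another. Fewer cells of a type and less RNA per cell cannot be told apart in whole seedlings.

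ABA is the hormone that plants build up under water shortage and in ripening seeds, where it closes stomata and holds back germination. It is made from carotenoids in plastids. *ABA1* encodes zeaxanthin epoxidase, which makes the epoxidised xanthophylls, and the NCED enzymes then cut a cis-epoxycarotenoid to xanthoxin, the step held to set the rate of synthesis. *ABA2* encodes the dehydrogenase that turns xanthoxin into abscisic aldehyde, and *AAO3* the aldehyde oxidase that makes ABA from it. The CYP707A cytochrome P450 enzymes hydroxylate ABA and so start its breakdown.

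Each locus had 1 log2 ratio per array, of mVOC-exposed over control, as the mean of its probes. Ratios were tested against 0 with limma, with Benjamini-Hochberg adjustment over all loci and a threshold of 0.05. In mVOC-exposed seedlings *NCED3* and *NCED9* fell and *CYP707A2* rose, while the other 7 did not pass the test, including *NCED6*, which was at background. Thus 3 of 10 genes were called, beside 22.7% of all loci, a share too near the background to be a result about the set. By direction, 2 of the 10 were lower, beside 10.9% of loci, and 1 was higher, beside 11.7%. The median log2 ratio of the 10 genes was -0.041, and that of all loci was 0.0013.

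**Figure D1:**
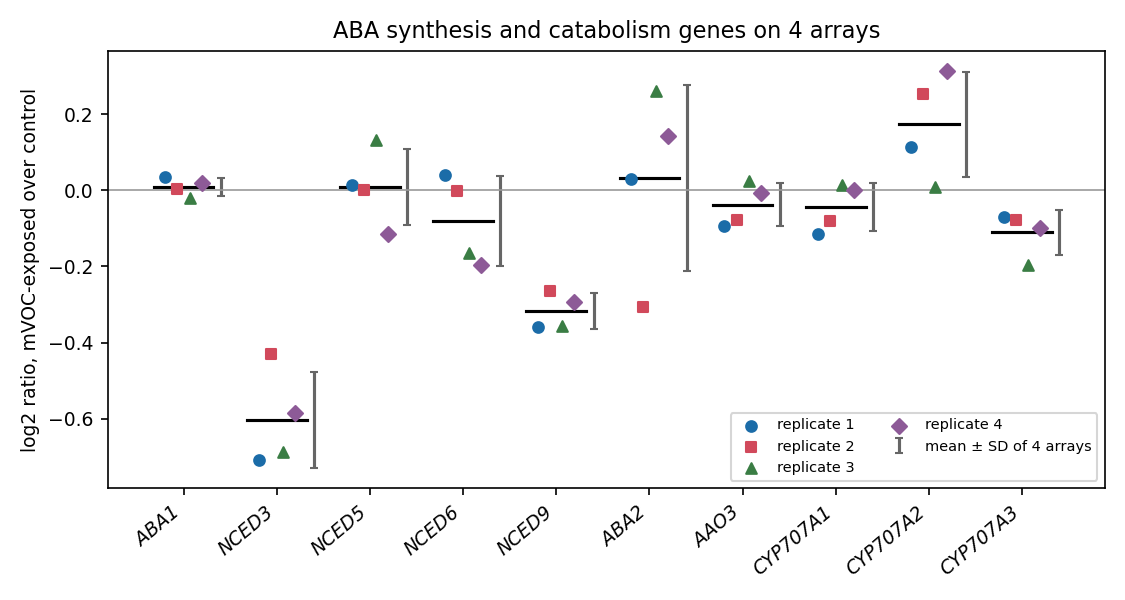
Log2 ratio of mVOC-exposed over control (vertical axis) of the 10 genes, in the order of the pathway. *NCED6* was at background on all 4 arrays. Points are the 4 arrays, black lines the mean and grey bars the SD; *NCED3* and *NCED9* lie below 0 on all 4 arrays, and *CYP707A2* above 0 on all 4.

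The cleavage step showed the largest change among the 10 genes. *NCED3* (AT3G14440) is the NCED gene best known for its induction by drought. Its only probe on the array is a 60-base oligonucleotide with 45% G and C, shown because every *NCED3* value rests on it, and given in lower case throughout since no part of it is singled out.
NCED3 probe: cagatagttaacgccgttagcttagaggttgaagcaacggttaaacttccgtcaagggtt

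The median pixel intensity of the *NCED3* spot was 112, 119.5, 115 and 118 in mVOC-exposed samples of replicates 1 to 4, against 178.5, 156, 175 and 159 in controls. After normalization its log2 intensity was 6.66, 6.88, 6.71 and 6.84 in mVOC-exposed samples, against 7.37, 7.31, 7.39 and 7.43 in controls. Every mVOC-exposed sample was below every control, which holds for 15.8% of all probes in one direction or the other.

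The log2 ratio of *NCED3* was -0.60 ± 0.13 (SD, n = 4), with a limma adjusted p of 3.79e-05 and a 95% interval of -0.71 to -0.49. Only 0.117% of loci had a lower ratio. It was lower on 4 of 4 arrays, at -0.71, -0.43, -0.69 and -0.59 in replicates 1 to 4. The spot is dim, and the size depends on how the local background is removed. With plain subtraction of the background the log2 ratio was -0.94 (adjusted p = 0.0268). By the scanner software, which also has its own dye normalization, it was -1.02 (adjusted p = 0.00596). These values lie outside the 95% interval, which does not cover the choice of processing. With variances not shared between loci, the adjusted p was 0.0620.

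*NCED9* (AT1G78390), known for ABA synthesis in developing seeds, was the other cleavage gene that fell. Its log2 intensity was 6.71, 6.77, 6.82 and 6.84 in mVOC-exposed samples, against 7.07, 7.04, 7.18 and 7.14 in controls. The groups did not overlap, and the change was nearly the same on each array. The log2 ratio was -0.32 ± 0.047 (SD, n = 4, limma adjusted p = 0.000465), with a 95% interval of -0.41 to -0.23. Its spot was dim as well. The log2 ratio was -0.48 with plain subtraction (adjusted p = 0.0251) and -0.72 by the scanner software (adjusted p = 0.00411).

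Most of the seed transcripts that changed fell, as *NCED9* did. Of 9 seed storage and oil-body genes, 5 fell, 1 rose and 3 did not pass the test, with a median log2 ratio of -0.15, beside 10.9% of all loci called lower and 11.7% called higher. Their 18 probes summed to between 2037 and 2128 normalized intensity units in mVOC-exposed samples, against 2679 to 2867 in controls. Among them, the cruciferin gene *CRU3* had a log2 ratio of -1.13 ± 0.085 (SD, n = 4), with a limma adjusted p of 9.65e-08, whereas the oleosin gene *OLEO2* was higher at 0.28 ± 0.11 (SD, n = 4, limma adjusted p = 0.00259). Only 8 of the 18 probes were well above background on all 4 arrays in mVOC-exposed samples and 10 in controls, and 3 were at background in both groups on all arrays. *SESA1* and *SESA3*, 2 of the 5 seed genes that fell, were well above background on 0 arrays in mVOC-exposed samples, so much of the sums lies near the detection limit. *SESA1*, *SESA2*, *SESA3*, *CRU2* and *CRU3* are among the genes that the study had selected from these same arrays. The count of seed genes that fell is therefore not independent of that selection. The part of seed transcripts in the *NCED9* value was not tested.

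**Figure D2:**
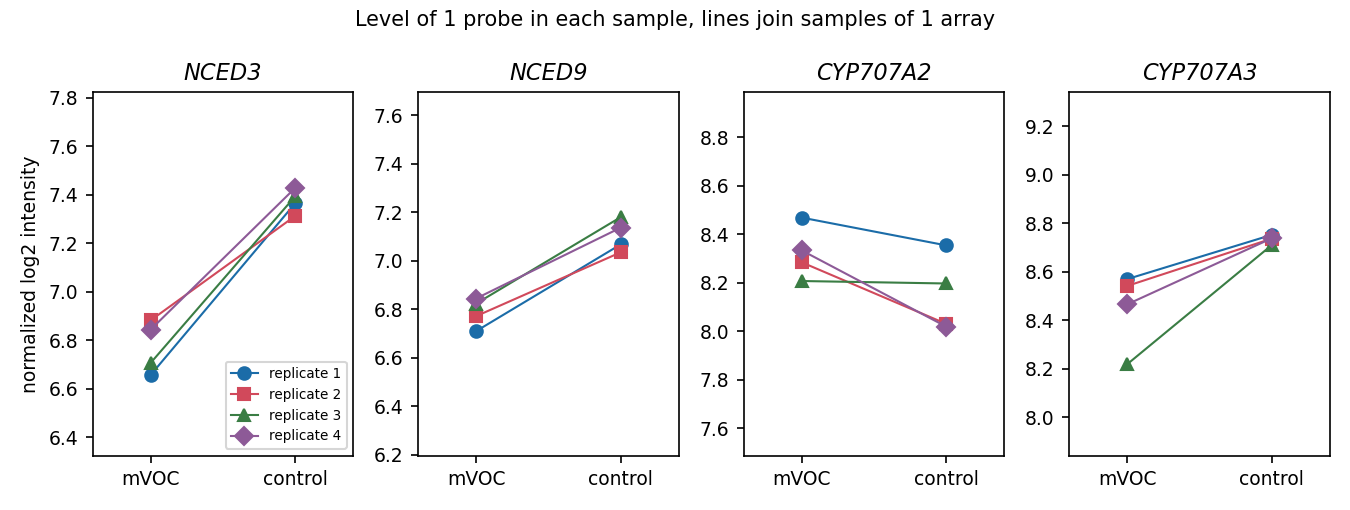
Normalized log2 intensity (vertical axis, spanning the same range in each panel) of 1 probe each of *NCED3*, *NCED9*, *CYP707A2* and *CYP707A3* in mVOC-exposed and control samples. Lines join the samples of 1 array; for *NCED3*, *NCED9* and this *CYP707A3* probe all mVOC-exposed points are below all control points, and for *CYP707A2* the groups overlap.

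The other cleavage genes were near the detection limit. *NCED6* (AT3G24220), which also acts in seeds, did not stand well above background in any of the 8 samples. Its spot read 58, 56, 57 and 55 in mVOC-exposed samples, against 70, 68, 73 and 70 in controls, which includes the local background, and no fold change is given (limma adjusted p = 0.266). *NCED5* (AT1G30100), which adds to ABA synthesis in leaves and seeds, was well above background on 3 of 4 arrays in mVOC-exposed samples and on 2 of 4 in controls. Its log2 intensity was 6.34, 6.19, 6.45 and 6.28 in mVOC-exposed samples, against 6.33, 6.19, 6.32 and 6.39 in controls. These groups overlapped fully. The log2 ratio of *NCED5* was 0.0085 ± 0.10 (SD, n = 4, limma adjusted p = 0.918), with a 95% interval of -0.093 to 0.11. No difference was detected, and the spot was dim. With plain subtraction the log2 ratio was 0.13 (limma adjusted p = 0.471), and by the scanner software 0.37 (adjusted p = 0.283). With median centring in place of loess it was -0.12 (adjusted p = 0.0758). These values lie outside the 95% interval, which does not cover the choice of processing.

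The genes on either side of cleavage each had a bright probe and did not pass the test as loci. *ABA1* (AT5G67030) had a log2 ratio of 0.0093 ± 0.023 (SD, n = 4, limma adjusted p = 0.890), with a 95% interval of -0.075 to 0.093. This mean hides a disagreement between its probes. The brighter probe had log2 intensities of 11.89, 11.98, 11.92 and 12.04 in mVOC-exposed samples, against 11.83, 11.90, 11.67 and 11.85 in controls. Its log2 ratio was 0.14 (limma adjusted p = 0.0438 over all probes, of which 12% were called higher and 11.4% lower), while the dimmer probe had -0.13 (adjusted p = 0.0975). The scanner software's log ratios of the same probes were 0.084 and -0.071.

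*ABA2* (AT1G52340) varied most between arrays. Its log2 intensity was 10.89, 10.54, 10.92 and 10.89 in mVOC-exposed samples, against 10.86, 10.85, 10.66 and 10.74 in controls. The mVOC-exposed sample of replicate 2 was the lowest of all 8, and the ratio on that array was -0.31 while the other arrays had 0.031, 0.26 and 0.14. The mean log2 ratio was 0.032 ± 0.24 (SD, n = 4, limma adjusted p = 0.797), with a 95% interval of -0.13 to 0.20. On slide 1 alone the mean was -0.14 (adjusted p = 0.275), from 0.031 in replicate 1 and -0.31 in replicate 2. On slide 2 alone it was 0.20 and passed the test (adjusted p = 0.0169), beside 3824 higher and 3471 lower calls among 28949 loci. The difference between slides was not tested.

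*AAO3* (AT2G27150) has 2 probes, of which 1 stayed at background in all 8 samples. The bright probe had log2 intensities of 11.01, 11.15, 11.18 and 11.17 in mVOC-exposed samples, against 11.03, 11.20, 11.10 and 11.08 in controls. The groups overlapped, and its log2 ratio was 0.023 ± 0.072 (SD, n = 4, limma adjusted p = 0.774 over all probes). Over both probes the log2 ratio was -0.038 (adjusted p = 0.545), with a 95% interval of -0.13 to 0.052.

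Among the catabolic genes, *CYP707A2* (AT2G29090), the family member best known for removing ABA from imbibed seeds, rose slightly. Its log2 intensity was 8.47, 8.28, 8.21 and 8.33 in mVOC-exposed samples, against 8.35, 8.03, 8.20 and 8.02 in controls. The groups overlapped, although the mVOC-exposed sample was the higher one on each array. The log2 ratio was 0.17 ± 0.14 (SD, n = 4, limma adjusted p = 0.0353), and it ranged between arrays from 0.010 in replicate 3 to 0.32 in replicate 4. The call is weak: it was lost in 13 of 22 alternative settings, among them the scanner software's log ratio (0.20, adjusted p = 0.108). Without replicate 1, 2 or 4 its adjusted p was 0.0574, 0.0947 and 0.191.

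*CYP707A3* (AT5G45340), which acts in vegetative tissue and is induced on rehydration, has 3 probes that disagree. The brightest had log2 intensities of 8.57, 8.54, 8.22 and 8.47 in mVOC-exposed samples, against 8.75, 8.74, 8.71 and 8.74 in controls. For this probe the groups did not overlap. Its log2 ratio was -0.29 ± 0.14 (SD, n = 4, limma adjusted p = 0.00167 over all probes, beside 23.5% of probes called). The second had a log2 ratio of -0.12 (adjusted p = 0.0971), and the third, above background in 1 of 8 samples, one of 0.073 (adjusted p = 0.297).

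As the mean of its 3 probes, *CYP707A3* had a log2 ratio of -0.11 ± 0.058 (SD, n = 4, limma adjusted p = 0.0743) and did not pass the test. It passed once probes at background were left out, with a log2 ratio of -0.20 (adjusted p = 0.0119), and with the brightest probe alone (-0.29, adjusted p = 0.0021). It also passed with slide as a fixed block (-0.11, adjusted p = 0.0406) and with median centring (-0.14, adjusted p = 0.0180). *CYP707A1* (AT4G19230), active in seeds and in guard cells, had a log2 ratio of -0.044 ± 0.063 (SD, n = 4, limma adjusted p = 0.477), with a 95% interval of -0.13 to 0.046. Its probes had -0.053 and -0.036, and neither passed the test.

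**Figure D3:**
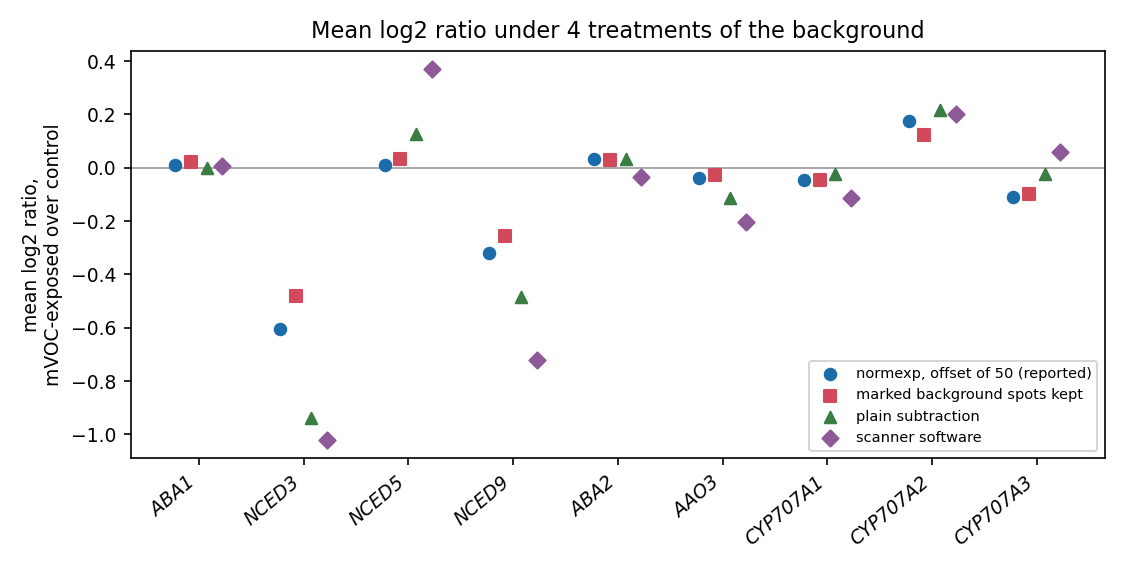
Mean log2 ratio of mVOC-exposed over control (vertical axis) of 9 of the 10 genes under 4 treatments of the local background (symbols). The scanner software's ratio also has its own dye normalization in place of loess. *NCED6* is left out because it was at background. *NCED3* and *NCED9* stay below 0 under each, and their size varies most: *NCED3* is at -0.60 as reported and at -1.02 by the scanner software.

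The other genes of the pathway, 34 in all, gave 4 higher and 2 lower calls, and 28 did not pass the test, with a median log2 ratio of 0.0075. Over all loci 11.7% were called higher and 10.9% lower, so the share called among the 34 was no larger than the background, and the counts by step below are too small to set against it. Of 12 genes that make carotenoids and xanthophylls, 1 fell and 1 rose. *BCH2* (AT5G52570), a beta-carotene hydroxylase on the branch to zeaxanthin, had a lower level, at -0.24 ± 0.060 on the log2 scale (SD, n = 4, limma adjusted p = 0.00254). This call was lost with variances not shared between loci (adjusted p = 0.0690). It was also lost in the deposited ratios of replicates 2 to 4 (adjusted p = 0.0661) and with samples unpaired (adjusted p = 0.0616). *LUT1* (AT3G53130), which hydroxylates on the lutein branch, was at 0.13 (adjusted p = 0.0441), a call that was lost when any 1 of the 4 replicates was left out, with an adjusted p of up to 0.150.

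None of 5 other carotenoid cleavage dioxygenases passed the test, and the largest ratio among them was that of *CCD4*, 0.070 (limma adjusted p = 0.271). Of 5 other genes for late steps and catabolism, 1 passed. The aldehyde oxidase gene *AAO1* (AT5G20960), which acts on auxin-related aldehydes more than on abscisic aldehyde, had a log2 ratio of -0.22 ± 0.025 (SD, n = 4, limma adjusted p = 0.00281). Of its 2 probes, the dimmer had -0.36 (adjusted p = 0.000111) and the brighter -0.081 (adjusted p = 0.278). The locus call thus rests on the dimmer probe. With median centring in place of loess its log2 ratio was -0.058 (adjusted p = 0.265).

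Among 6 genes for the storage of ABA as a glucose ester and its release, 1 rose and 0 fell. That gene is *BGLU18* (AT1G52400), a beta-glucosidase that frees ABA from the ester, with a log2 ratio of 0.37 ± 0.045 (SD, n = 4, limma adjusted p = 0.000169). Its ratio was 0.38, 0.31, 0.39 and 0.41 in replicates 1 to 4, and its 3 probes all passed the test at 0.26, 0.37 and 0.49. Under median centring it was 0.60.

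Of 6 transporter genes 2 rose, beside 11.7% of all loci. *ABCG40* (AT1G15520), a plasma membrane importer of ABA that the study had also selected on these arrays, had ratios of 1.26, 1.09, 1.01 and 0.95, with a mean of 1.08 ± 0.14 (SD, n = 4, limma adjusted p = 4.8e-07). *DTX50* (AT5G52050), an ABA efflux carrier, had a log2 ratio of 0.23 ± 0.16 (SD, n = 4, limma adjusted p = 0.0165). The *DTX50* values of 0.064, 0.11, 0.37 and 0.36 differed by slide. The call was lost without replicate 3 (adjusted p = 0.0633), without replicate 4 (adjusted p = 0.105) and on slide 1 alone (0.087, adjusted p = 0.292). The *DTX50* call was also lost with plain subtraction (0.26, adjusted p = 0.113), by the scanner software (0.21, adjusted p = 0.118) and in further settings.

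**Figure D4:**
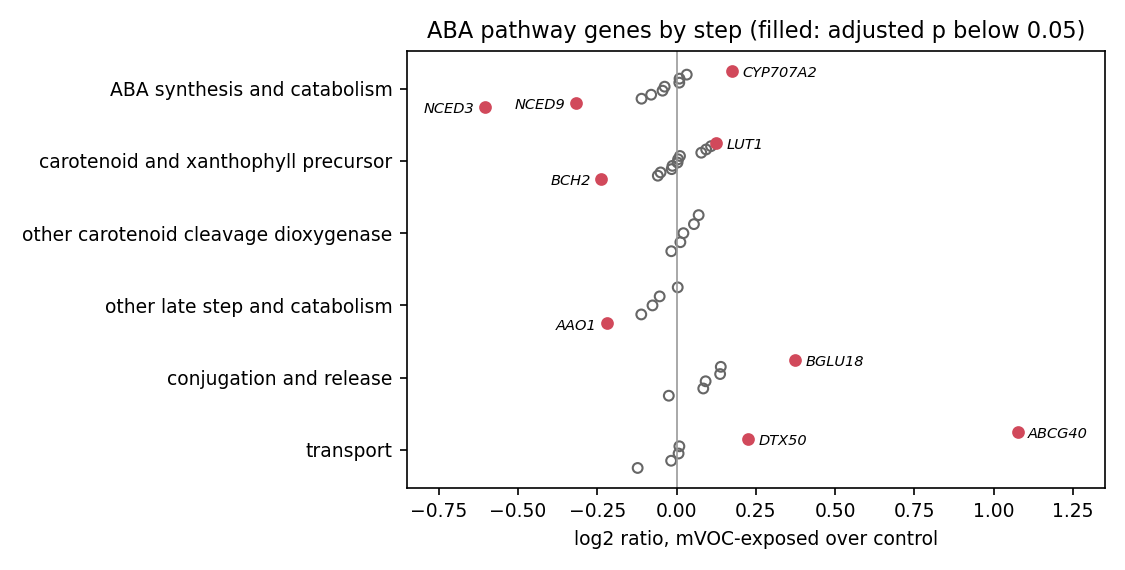
Log2 ratio of mVOC-exposed over control (horizontal axis) of the 10 synthesis and catabolism genes and of 34 other genes of the pathway, by step (rows). Filled, named points had an adjusted p below 0.05; they run from *NCED3* at -0.60 to *ABCG40* at 1.08.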

How the data were processed

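Expression was measured on 4 two-colour Agilent arrays, 1 per biological replicate. The authors deposited the output of Agilent Feature Extraction 11.5.1.1, which gives linear, unnormalized median intensities of spots and of the background around them, and flags (other values of 0 or 1). The same deposited files hold a log10 ratio of Cy5 over Cy3 after background subtraction and dye normalization. In the deposited table of the series, replicates 2 to 4 hold this log10 ratio and replicate 1 holds its error, so replicate 1 of the table was not used.

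The software used was limma 3.58.1 in R 4.3.3. Spots marked for non-uniform background (112 to 194 per array) were left out first, because on replicate 4 a local background of up to 59573 in Cy3 distorted the background model: with those spots kept, the SD of its log2 ratios over loci was 0.103, against 0.157 without them. The normexp correction had an offset of 50, which draws ratios of dim probes towards 0, and arrays were normalized by loess. Control and outlier spots were left out. Spots were averaged per probe and probes per locus, and the log2 ratios of all loci were fitted with an intercept alone and eBayes. Levels per sample are log2 intensities after loess and Aquantile. Of 29013 loci, 28581 are in the RefSeq table (TAIR10.1 assembly), whose coordinates were not used.

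Samples of 1 array are paired: after removal of group means they correlated across probes with r of 0.501, 0.574, 0.370 and 0.334 in replicates 1 to 4, and samples of different arrays with r of -0.387 to 0.0768. The pairs from different arrays each joined an mVOC-exposed sample with a control sample. Where samples of an array correlate, removing group means draws the values between different arrays below 0, which widens the contrast. The shared spots of an array and a pairing of the plants cannot be told apart here. The steps from background correction to the limma fit were first tested on simulated arrays with independent noise and no slide or dye effect. The levels per sample, the calls of spots above background and the alternative settings were not tested in this way. With 4 arrays an exact sign test cannot go below p = 0.125, and the number of arrays limits the precision. The genes, lists and the handling of marked spots were chosen with earlier results of these data known. The named genes were the 10 genes and, of each list, up to 3 that passed the test by their p, or the largest change where none passed.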

Additional observations from a re-analysis of the deposited data

How the results depend on the processing

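*NCED3* and *NCED9* were lower in every setting tried, and both passed the threshold in each, except *NCED3* with the ordinary test. Their log2 ratios ran from -1.02 to -0.48 and from -0.72 to -0.26, the smallest sizes being those with the marked background spots kept (adjusted p = 0.00437 and 0.00964). No called value changed sign. Among the 10 genes, the 1 higher call became 0 with marked spots kept, plain subtraction, no offset, the scanner software's ratio, the deposited table, the ordinary test, slide as a random block and slide 1 alone, and 2 with the brightest probe of each locus. It was 0 to 1 with each replicate left out. The 2 lower calls became 4 with median centring, among them *NCED6* at background (-0.26, limma adjusted p = 0.00222), and 1 with the ordinary test. They became 3 with only probes above background, slide as a fixed block, slide 2 alone and the brightest probe of each locus. They stayed 2 with each replicate left out. On slide 2 alone the 1 higher call was *ABA2*, and *CYP707A2* was not called (adjusted p = 0.0915). The lower calls on that slide included *NCED6* at background (-0.18, limma adjusted p = 0.0240).

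Over all loci, the 3403 higher and 3175 lower calls became 1346 and 881 with plain subtraction, 939 and 951 with no offset, 7904 and 7526 with median centring, 290 and 311 with the ordinary test, 1695 and 1424 on slide 1 alone, and 5242 and 4983 when each probe was tested on its own. The deposited table, with 3 arrays, gave 2126 higher. With each replicate left out they ranged from 1625 to 3253 and from 1502 to 2896, lowest without replicate 4. The cause was not tested. For the 34 other pathway genes, the 4 higher calls became 2 with plain subtraction, no offset, the ordinary test and slide 1 alone, 14 with median centring, and 7 with the scanner software's ratio and with slide as a fixed block, and were 2 to 4 with each replicate left out. Their 2 lower calls became 4 with median centring and on slide 2 alone, and 1 with the deposited table and the ordinary test.

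The ratio pairs the samples of an array. Without the pairing (no replicate block), the calls were 1546 higher and 1376 lower over all loci, 0 higher and 2 lower among the 10 genes, and 2 higher and 1 lower among the other pathway genes. Spots near background limit *NCED5*, *NCED6* and the dim probes of *AAO3* and *CYP707A3*. They also limit *AAO4*, *UGT71B8* and *CCD7* among the other pathway genes that did not pass the test. These were well above background on 1, 3 and 3 arrays in mVOC-exposed samples, and on 0, 0 and 1 in controls.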

Other observations

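Of 8 marker genes of plant parts, 3 were called and 5 did not pass the test, beside 22.7% of all loci called. Among 4 shoot genes, 2 were higher in mVOC-exposed seedlings, and the Rubisco small-subunit gene *RBCS1A* had a log2 ratio of 0.47 ± 0.10 (SD, n = 4, limma adjusted p = 0.000113). Among 4 root genes, 1 was lower, the phosphate transporter gene *PHT1;1*, at -0.40 ± 0.14 (SD, n = 4, limma adjusted p = 0.000695). Their part in the values of the 10 genes was not tested.

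*NCED3* and *NCED9* had nearly the same log2 ratio on both slides. *NCED3* was at -0.57 on slide 1 and -0.64 on slide 2, and *NCED9* at -0.31 and -0.32. For *NCED6*, the scanner software gave a log ratio of exactly 0 on all 4 arrays. For the dimmest *CYP707A3* probe it gave 0.37, 0.11, 0.30 and 1.53 in replicates 1 to 4, and this probe turned the sign of its mean over the 3 *CYP707A3* probes to 0.057 (limma adjusted p = 0.713).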
